A study of Mus musculus with 2 samples.

Results

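Of the 27998 genes in the count tables, 10 were followed here, the antiviral interferon-stimulated genes Isg15, Ifit1, Ifit3, Rsad2, Oasl2, Irf7, Bst2, Usp18, Ifi44 and Mx1. They were chosen by name, with earlier results of these data known, and all 10 were present in both libraries. Single cells from ear skin of ICR mice aged 7 to 8 weeks had been profiled by droplet 3′ RNA sequencing, with 1 library from healthy skin (control) and 1 from skin with allergic contact dermatitis (ACD). For ACD, 1.0% of the hapten dinitrofluorobenzene (DNFB) was painted on the back, 0.2% was painted on the ears 6 days later, and ears were taken at 60 h after this elicitation. Dead cells were removed before loading, and how many animals went into a library is not given in the sources used here. The question put to the 10 genes was in which resident and immune cells they rose in ACD, and how their change compared with that of genes that lean towards interferon-γ (IFNγ).

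With 1 library per group no test between control and ACD is possible. Each value below is a count of UMIs (unique molecular identifiers, each standing for 1 captured RNA molecule) of a gene in a class of cells per 1000000 UMIs of that class, written CPM (counts scaled to 1000000). A UMI tags the 3′ end of a molecule, so levels need no scaling by gene length. Intervals are exact 95% intervals (Poisson for a level, conditional binomial for a ratio, Clopper-Pearson for a share) and cover counting error only, not the spread between animals. The control library held 99037698 UMIs in 12895 barcodes and the ACD library 126566870 in 13163, of which 12213 and 11665 cells passed the study's limits on detected genes, on total UMIs (25000) and on the mitochondrial share (8%). Median depth of these cells was 6850 UMIs in control and 7447 in ACD, and 47 of their barcode sequences occurred in both libraries.

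Cells were gated on marker genes, none of them a member, and each class name stands for cells that resemble that type by these markers (fibroblast-like, T-like and so on). In 13 classes at least 20 cells were found in each library, 10 of them resident and 3 immune. All markers of these 13 classes were detected in both libraries and were higher inside their class than outside it. Cells with markers of more than 1 class (12.1% of control and 10.8% of ACD cells) and cells with too few markers (4.67% and 6.25%) were left out of the classes. Neutrophil-like, basophil-like and B cell-like classes had at most 5 control cells, and plasmacytoid dendritic-like cells were seen in ACD alone, so they are described without a ratio of their own. They do enter the values pooled over all immune classes.

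Type I interferons (IFNα, IFNβ and related proteins) bind the receptor IFNAR and activate a complex that holds STAT2 and IRF9 and binds the interferon-stimulated response element (ISRE) before antiviral genes. IFNγ, the type II interferon, binds IFNGR and acts on its target genes through the gamma-activated site (GAS). Many genes respond to both, and antiviral genes with an ISRE can also be raised by IRF1, itself a target of IFNγ.

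The ISRE core can be read directly in the promoters of several members. RefSeq promoter sequences (build GRCm38.p6, 250 bases before to 50 bases after the start of transcription) were given for 8 of the 10 genes, Usp18 and Mx1 being the others. The ISRE core, taken as GAAA followed by any 2 bases and a further GAAA, was searched on both strands and was found in 5 of the 8, against 3.44% of all 32851 promoters of the same length. TTCNNNGAA, the core of a GAS, was found in 1 of the 8 (both strands searched), against 8.30% of all promoters. Promoters of the other gene lists used below held the ISRE core at a like share, 18 of 35 other antiviral genes and 10 of 17 IFNγ-leaning genes. The GAS core was in 6 of 35 and 8 of 17. For the members the counts were 5 and 1 also when only the 250 bases before the start were searched. The stretches below run 5′ to 3′ on the strand of the gene, from base 180 to base 21 before the start, and are shown because they hold every match. Capitals mark this core or its reverse complement, and adjacent capitals can be overlapping matches.
Isg15, chr4:156200839-156200998, minus strand: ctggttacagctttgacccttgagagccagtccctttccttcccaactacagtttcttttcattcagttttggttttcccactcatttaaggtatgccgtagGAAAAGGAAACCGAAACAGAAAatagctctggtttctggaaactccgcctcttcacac
Ifit1, chr19:34640709-34640868, plus strand: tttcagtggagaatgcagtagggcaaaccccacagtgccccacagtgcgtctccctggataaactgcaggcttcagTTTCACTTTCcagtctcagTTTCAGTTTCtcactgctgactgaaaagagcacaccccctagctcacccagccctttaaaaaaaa
Ifit3, chr19:34583349-34583508, plus strand: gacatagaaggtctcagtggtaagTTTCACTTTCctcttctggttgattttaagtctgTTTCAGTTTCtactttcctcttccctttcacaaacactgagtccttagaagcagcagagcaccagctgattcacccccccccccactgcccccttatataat
Rsad2, chr12:26456473-26456632, minus strand: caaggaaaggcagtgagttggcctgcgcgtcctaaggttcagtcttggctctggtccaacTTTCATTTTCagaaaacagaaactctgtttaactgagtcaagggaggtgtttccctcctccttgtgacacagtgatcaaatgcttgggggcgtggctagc
Bst2, chr8:71537493-71537652, minus strand: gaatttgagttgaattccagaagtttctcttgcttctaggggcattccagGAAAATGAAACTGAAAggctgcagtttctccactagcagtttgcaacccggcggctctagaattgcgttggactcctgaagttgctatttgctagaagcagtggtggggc
Oasl2, chr5:114896754-114896913, plus strand: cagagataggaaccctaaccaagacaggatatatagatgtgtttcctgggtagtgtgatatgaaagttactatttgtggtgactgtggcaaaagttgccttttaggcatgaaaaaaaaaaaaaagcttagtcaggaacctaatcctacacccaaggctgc

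Isg15 carried 3 overlapping matches in 1 run, Ifit1 and Ifit3 carried 2 separate matches each, Bst2 carried 2 that overlap, and Rsad2 carried 1. The GAS match of Bst2, TTCCAGGAA, lay at bases 136 to 128 before the start and overlapped its first ISRE match. Oasl2 is shown as a promoter with neither motif in this window, as were Irf7 and Ifi44. A match of letters is a description and not a bound site. In the GENCODE vM21 annotation of the same build, Irf7 (chr7:141262706-141266481) overlapped Phrf1 and Usp18 (chr6:121245906-121270917) overlapped the long non-coding RNA gene Gm44148, both on the opposite strand, and the other 8 members overlapped no annotated gene.

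The summed level of the 10 genes was higher in ACD than in control in all 13 classes, and its interval lay above a ratio of 1 in 12 of them. Over all resident classes together it went from 53.5 to 373 CPM, 6.97-fold, and over all immune classes from 113 to 218, 1.94-fold. The immune pool includes classes with few or no control cells. In ACD, plasmacytoid dendritic-like cells gave 867 of its 5213 member UMIs, basophil-like 173, neutrophil-like 91 and B cell-like cells 9. The 3 compared immune classes had ratios of 1.56 (T/NK/ILC), 2.46 (mononuclear phagocytes) and 1.08 (mast cells). Among resident classes the ratio ran from 2.48-fold in vascular smooth muscle cells to 22.2-fold in keratinocytes. Without the cells that carried any marker UMI of T, mononuclear phagocyte or neutrophil classes, the resident log2 ratio was 2.68, against 2.80 with them.

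**Figure D1:**
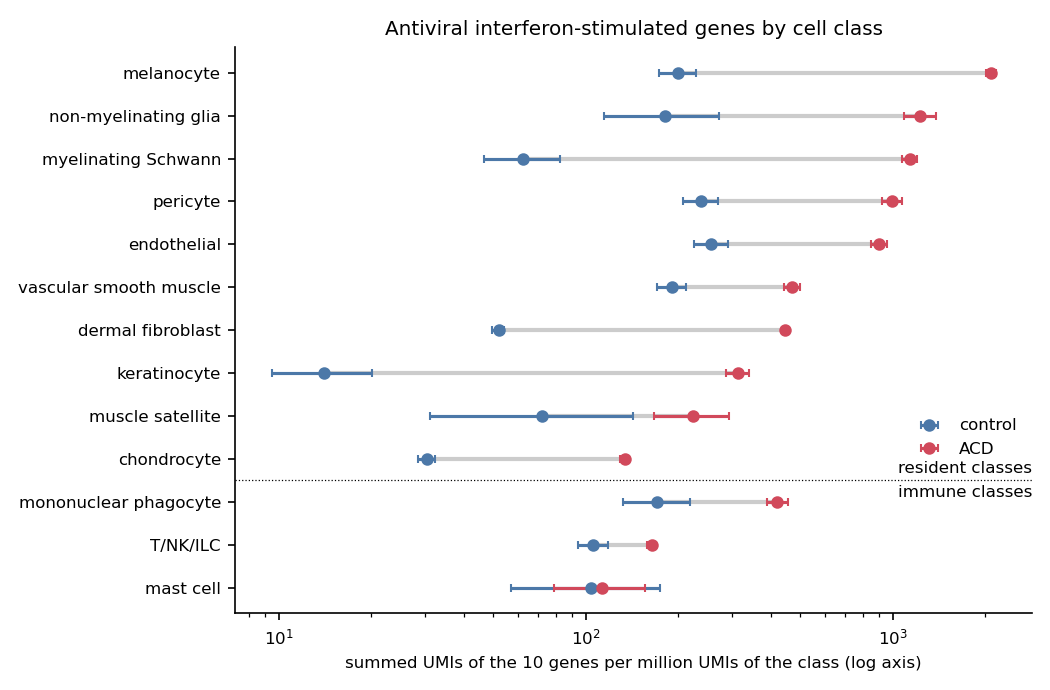
Summed CPM of the 10 antiviral genes in each cell class (log axis) in control (blue) and ACD (red), 1 library each, with exact 95% Poisson intervals for counting error. In the 10 resident classes above the dotted line the ACD point lies to the right of the control point without overlap, whereas the mast cell intervals overlap below it.

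In control skin the sum was highest in cells of the vessel wall and pigment cells. Endothelial cells had 256 CPM, pericytes 237, melanocytes 200 and vascular smooth muscle cells 190, and the intervals of neighbours in this order overlapped. Dermal fibroblasts (dFBs) had 52.0, chondrocytes 30.3 and keratinocytes 14.1, the 3 lowest levels, with intervals that did not overlap each other. T/NK/ILC cells (T, natural killer and innate lymphoid cells) had 106 and mononuclear phagocytes 171. In control skin both of these immune classes were above dFBs, chondrocytes and keratinocytes.

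In ACD the order of the 13 compared classes was different. Outside these 13, plasmacytoid dendritic-like cells had 3226 CPM (3015 to 3448), most of it Bst2, and neutrophil-like cells had 667 (537 to 819). Melanocytes reached 2082 CPM, non-myelinating glia 1227, myelinating Schwann cells 1134, pericytes 996 and endothelial cells 900. The melanocyte interval lay above that of the next class, whereas the intervals of both glial classes overlapped. dFBs reached 444 and mononuclear phagocytes 421, with overlapping intervals. T/NK/ILC cells stood at 164, which was below dFBs and keratinocytes (313) and above chondrocytes (134). The dFBs alone held 10739 of the 33387 member UMIs of the ACD library.

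Bst2 encodes tetherin, a membrane protein that holds budding virus particles on the cell surface, and it gave the most UMIs of the 10 genes. Over all kept cells it held 1770 of the 5333 member UMIs in control (33.2%) and 16698 of 33387 in ACD. In dFBs it went from 20.2 to 245 CPM, 12.2-fold (11.3 to 13.1). In myelinating Schwann cells it went from 29.5 to 666, 22.6-fold (15.1 to 35.5), and in keratinocytes from 3.28 to 99.6, 30.4-fold (14.4 to 76.7). T/NK/ILC cells had 57.7 CPM of Bst2 in control and 78.1 in ACD, 1.35-fold (1.16 to 1.59). Bst2 was thus already present in T/NK/ILC cells of control skin at a level above that of dFBs, and in ACD the order of the 2 classes was turned. Plasmacytoid dendritic-like cells, which express Bst2 constitutively in mice, had 3144 Bst2 CPM in ACD over 37 cells, with Irf7 at 63.2 and no UMI of Isg15, Ifit1, Ifit3, Usp18 or Ifi44. Without Bst2 the log2 ratio of the sum was 2.39 in resident classes and 1.02 in immune classes.

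Most members with enough UMIs passed a 2-fold call in resident cells, 36 of 48 pairs of member and class. A gene was called when it had at least 50 UMIs in a class over both libraries and its ratio was at least 2 after 10 CPM were added to both sides, so that low genes are not called on a few UMIs. In dFBs 6 of the 10 members were called higher, beside 0.729% of all 12751 genes tested. These were Bst2, Isg15, Ifit1, Ifit3, Oasl2 and Irf7. In keratinocytes all 4 members with enough UMIs were called (1.69% of all genes), as were 4 of 4 in endothelial cells (2.72%), 4 of 4 in pericytes (2.1%), 5 of 5 in myelinating Schwann cells (1.78%), 7 of 7 in melanocytes (1.58%) and 2 of 2 in non-myelinating glia (5.07%). In vascular smooth muscle 3 of 4 were called (1.02%) and in chondrocytes 1 of 8, Bst2 (0.384%). Over all resident classes pooled 6 of 10 were called (0.578%), and over all immune classes pooled 0 of 9 (1.36%). A member can reach 50 UMIs through ACD alone, so these counts describe the measured members and not all 10.

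Immune classes differed among themselves. None of 6 members was called in T/NK/ILC cells, beside 1.37% of 10396 genes. In mononuclear phagocytes 3 of 4 were called, Irf7, Isg15 and Rsad2, beside 4.38% of 4365 genes. Mast cells had no member with 50 UMIs. Subsets of T/NK/ILC cells differed from the pooled class. In gamma delta 17-like cells 3 of 4 members were called (1.29% of all genes), Isg15 from 3.92 to 22.8 CPM, Oasl2 from 3.92 to 30.7 and Bst2 from 34.0 to 100. In Treg-like cells 2 of 3 were called (9% of all genes), Isg15 and Bst2, on 2 and 1 control UMIs. None of 3 was called in CD4+ cells (3.28%) and none of 2 in dendritic epidermal T cell-like cells (3.51%), which held 139 of the 318 control member UMIs of the pooled class. Of the 130 pairs of member and class, 90 had an interval of the ratio above 1 and none an interval below it. With 1 CPM added in place of 10, all 10 members were called in dFBs, beside 2.09% of all genes, and 2 of 6 in T/NK/ILC cells, beside 3.75%. The same setting gave 10 of 10 over all resident classes pooled (1.84%) and 5 of 9 over all immune classes pooled (3.9%).

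**Figure D2:**
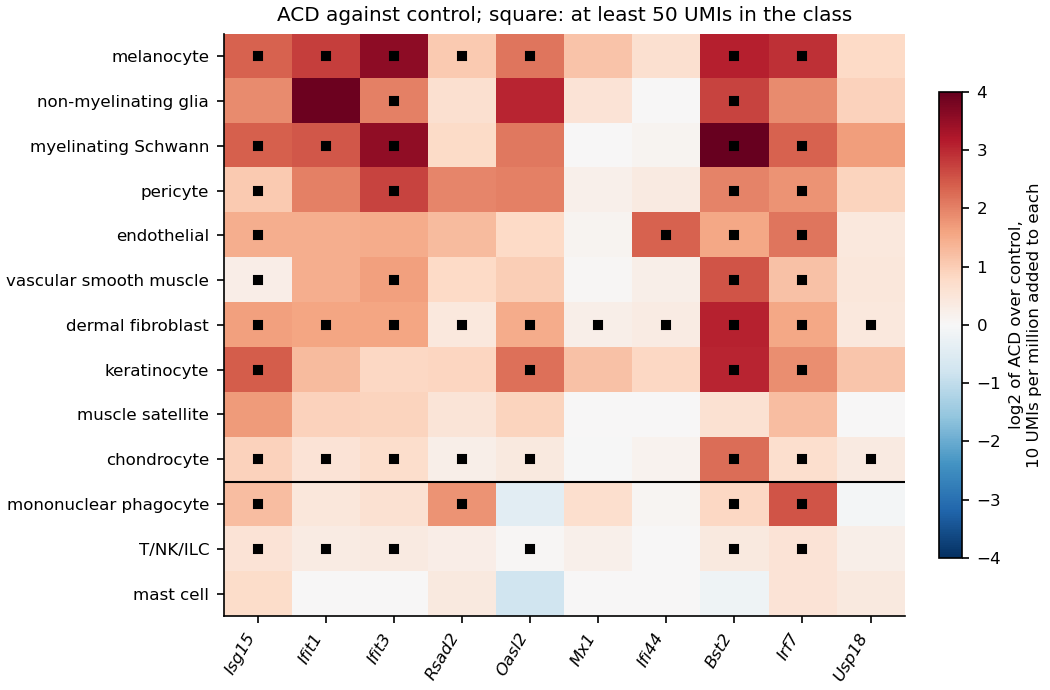
Heat map of the log2 ratio of ACD over control for each antiviral gene (columns) in each class (rows, resident above the line and immune below), with 10 CPM added to both libraries. Black squares mark the 58 pairs with at least 50 UMIs, of which 39 passed 2-fold, and red fills most resident rows whereas the T/NK/ILC row is pale.

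Isg15, a ubiquitin-like protein that is attached to other proteins during interferon responses, was highest in vessel wall cells in control among the 13 classes. In vascular smooth muscle it was 151 CPM in control and 185 in ACD, 1.23-fold (1.05 to 1.43), the smallest ratio of Isg15 among the 13 classes. In pericytes it went from 95.5 to 208 and in endothelial cells from 73.8 to 219. In dFBs it went from 7.17 to 43.4, 6.05-fold (5.28 to 6.95), and in keratinocytes from 4.22 to 66.4, 15.7-fold (8.01 to 35.3). dFBs and keratinocytes thus started more than 10 times below vascular smooth muscle and ended at lower levels with larger ratios. The T/NK/ILC level of Isg15 was 23.6 in control and 39.1 in ACD. Neutrophil-like cells of ACD had 440 Isg15 CPM (335 to 566) and basophil-like cells 141, but only 3 control cells stood in each of these classes.

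Usp18, the protease that removes Isg15 from its targets and damps signalling at IFNAR, was low throughout. It had 172 UMIs in the control library and 572 in ACD over all kept cells. In dFBs it was 2.06 in control and 6.25 in ACD, 3.04-fold (2.29 to 4.06). The highest ACD level was in myelinating Schwann cells, from 4.91 to 37.1, on 4 control UMIs, with an interval that overlapped that of melanocytes at 18.8. It reached 50 UMIs in 2 classes and was called in neither.

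Ifit1 and Ifit3 encode tetratricopeptide-repeat proteins that act on viral RNA, and they sit next to close copies on chromosome 19. Ifit3b had 232 UMIs in control and 699 in ACD, and Ifit1bl1 and Ifit1bl2 had 33 or fewer each, so reads shared between copies make the levels of Ifit1 and Ifit3 uncertain. In melanocytes Ifit3 went from 55.1 to 765 CPM, 13.9-fold (10.6 to 18.4), and this was the highest Ifit3 level of any class, with an interval above that of the next, non-myelinating glia at 285. In dFBs Ifit3 went from 6.93 to 41.0, 5.92-fold (5.16 to 6.82), and Ifit1 from 2.90 to 28.4, 9.81-fold (8.00 to 12.1). In T/NK/ILC cells Ifit3 had 1 UMI in control and 65 in ACD, 9.47-fold (1.64 to 380), and Ifit1 had none in control and 51 in ACD, at least 2.48-fold higher when 3 UMIs are taken for the count of 0. Both were more than 10 times below their ACD level in dFBs, and the 31 cells with the most Ifit3 held 70.8% of the Ifit3 UMIs of this class in ACD. In myelinating Schwann cells Ifit1 had no UMI in control and 46.6 CPM in ACD, at least 12.7-fold higher.

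The balance of Ifit3 and Isg15 differed between classes. In ACD there were 6.48 Ifit3 UMIs for each Isg15 UMI in melanocytes (5.45 to 7.74), 1.97 in non-myelinating glia (1.27 to 3.11) and 0.946 in dFBs (0.866 to 1.03). The same ratio was 0.169 in vascular smooth muscle, 0.0943 in endothelial cells and 0.0803 in T/NK/ILC cells. In control the ratio was 3.63 in melanocytes (2.06 to 6.76), 2.00 in non-myelinating glia (0.536 to 9.08) and 0.966 in dFBs (0.810 to 1.15). It was 0.0216 in vascular smooth muscle, 0.0143 in endothelial cells and 0.0141 in T/NK/ILC cells, on 6, 1 and 1 Ifit3 UMIs. The intervals of these lower classes lay below those of the former but overlapped each other, so their own order in control is not settled. The ratios of melanocytes, non-myelinating glia and dFBs had overlapping intervals in control and ACD. Other classes moved towards Ifit3 in ACD without overlap of intervals. In myelinating Schwann cells the ratio went from 0.0526 (0.00127 to 0.331) to 0.746 (0.596 to 0.933). It went from 0.0842 (0.0353 to 0.173) to 0.517 (0.386 to 0.688) in pericytes, and from 0.0216 to 0.169 in vascular smooth muscle.

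**Figure D3:**
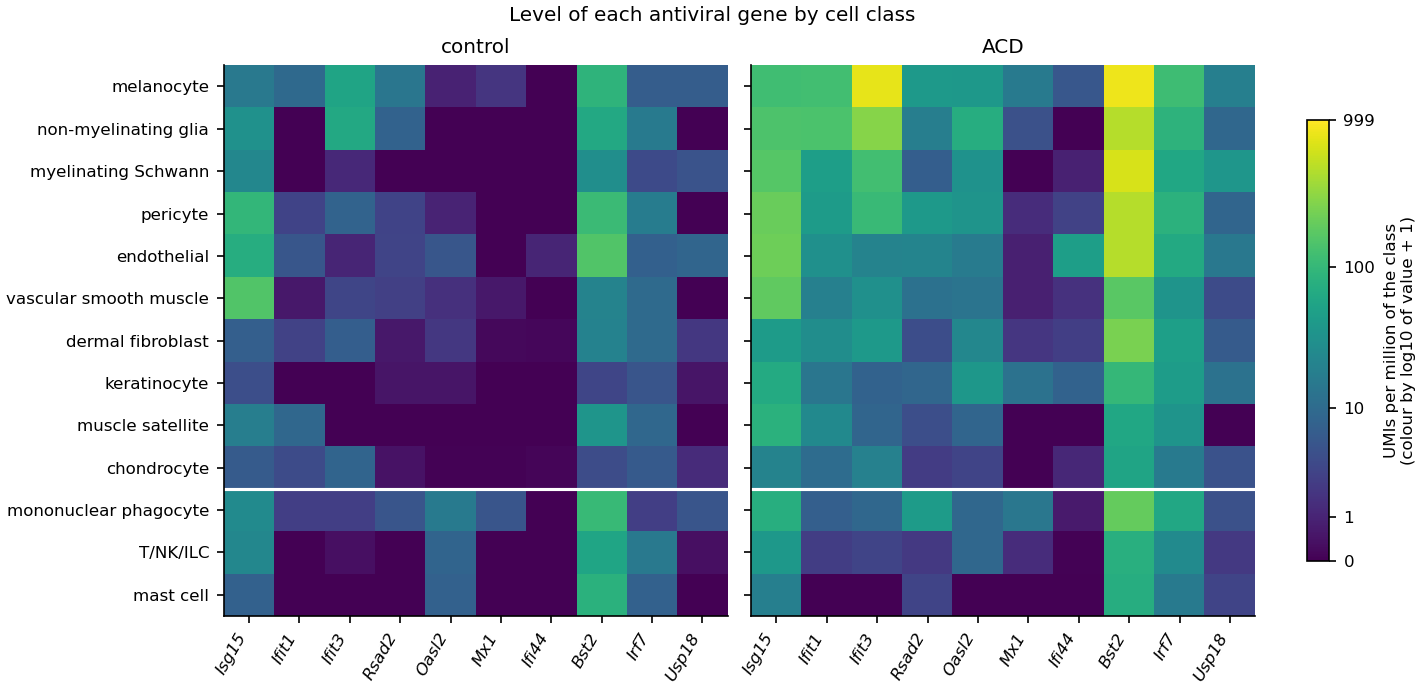
Level of each antiviral gene in control (left) and ACD (right) as CPM of the class, coloured by log10 of the value plus 1, with resident classes above the white line and immune classes below. The brightest ACD fields are Bst2 and Ifit3 of melanocytes at 840 and 765, and Ifi44 stands out in endothelial cells alone.

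Rsad2 encodes viperin, an enzyme that makes a chain-terminating nucleotide, and was highest in ACD in mononuclear phagocytes, from 5.26 to 43.2 CPM, 8.21-fold (2.19 to 69.2), with overlapping intervals for pericytes at 40.2 and melanocytes at 39.9. In dFBs it was 0.541 in control and 4.10 in ACD. Oasl2, an oligoadenylate synthetase-like protein, went from 2.03 to 23.3 in dFBs, 11.5-fold (9.02 to 14.8), and from 1 to 64 UMIs in keratinocytes, 81.0-fold with a wide interval (14.0 to 3248). Its T/NK/ILC level was 8.30 in control and 8.95 in ACD, 1.08-fold (0.708 to 1.71).

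Ifi44, an interferon-induced gene, had 11 UMIs in the control library and 221 in ACD. Endothelial cells had the highest ACD level, 47.2 CPM (35.7 to 61.1), from 1 control UMI, and the next class, keratinocytes, had 7.71 with an interval that did not overlap. Mx1, a dynamin-like GTPase that blocks viral replication, had 13 and 173 UMIs, and its highest ACD levels were 16.4 in melanocytes, 14.4 in mononuclear phagocytes and 12.5 in keratinocytes, with overlapping intervals. In chondrocytes Mx1 had 1 UMI in control and none in ACD. Both genes are near the limit of detection in most classes at this depth.

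Irf7, the transcription factor that amplifies type I interferon production, was called in 8 of the 10 classes where it had 50 UMIs. In dFBs it went from 9.85 to 47.7 CPM, 4.85-fold (4.30 to 5.47), and in melanocytes from 6.65 to 117, 17.5-fold (8.30 to 44.3). In mononuclear phagocytes it went from 1 UMI to 95, from 2.63 to 62.1 CPM, 23.6-fold (4.14 to 943). The wide interval reflects that single control UMI among 45 cells. The T/NK/ILC level of Irf7 was 15.3 in control and 26.6 in ACD, 1.74-fold (1.29 to 2.41).

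Subsets of dFBs shifted in the same direction by different amounts. The sum went from 60.5 to 285 CPM in adventitial progenitor-like cells, from 58.9 to 375 in preadipocyte-like cells, from 51.4 to 451 in reticular or papillary-like cells and from 65.6 to 665 in peri-follicular-like cells. The log2 ratios were 2.24 (1.91 to 2.57), 2.67 (2.48 to 2.86), 3.13 (3.02 to 3.24) and 3.34 (3.08 to 3.62). The lowest and the highest did not overlap. Only dFBs with clear markers of 1 subset were placed, and 331 of the 2179 ACD dFBs were preadipocyte-like. That gate uses Lpl and Apoe among its markers. The study reports that both were lost in ACD in its preadipocyte cluster with raised interferon-inducible genes. Whether the gate missed such cells was not tested. The largest dFB cluster was not the same in the 2 libraries, since 1 Leiden cluster held 29.4% of control and 6.61% of ACD dFBs and another 13.0% and 28.5%. Some clusters held like shares, such as 12.2% and 12.9%. When cells were classed by cluster, the dFB value stayed inside its interval. All dFB clusters were pooled again in that setting, so the part of cluster make-up in the class ratio was not tested.

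Among T/NK/ILC subsets, dendritic epidermal T cell-like cells had the highest sum in both libraries, 340 CPM in control and 491 in ACD, a log2 ratio of 0.53 (0.25 to 0.82). Gamma delta 17-like cells went from 50.9 to 190, a log2 ratio of 1.90 (1.43 to 2.41), which did not overlap. CD4+ cells went from 67.1 to 116 and Treg-like cells from 66.8 to 172, on 18 and 6 control UMIs. The make-up of the class differed between libraries, with 59.6% of control and 16.6% of ACD cells in 1 cluster and 7.45% and 38.9% in another. Its part in the class ratio was not tested. Macrophage-like cells within the mononuclear phagocytes went from 270 to 903, a log2 ratio of 1.74 (1.18 to 2.35), on 18 and 32 cells. The mononuclear phagocyte class as a whole had a log2 ratio of 1.30, which was 0.55 as a mean over cells and 1.84 with classes taken from clusters.

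The rise in resident cells was also seen as cells with several members at once. After each cell was thinned to 2000 UMIs, 4.39% of 2163 ACD dFBs had at least 3 of the 10 genes (3.57% to 5.34%), against 0.0227% of 4413 control dFBs. In melanocytes the share was 32.8% of 180 ACD cells (26.0% to 40.2%) against 0.541% of 185 control cells. In myelinating Schwann cells it was 15.5% against 0.495%, and in pericytes 15.7% against 0.474%. In T/NK/ILC cells it was 0.690% of 3043 ACD cells (0.428% to 1.05%) against 0.152% of 658 control cells, with overlapping intervals. Without thinning the share with at least 3 was 0.765% and 29.1% in dFBs and 0.584% and 4.20% in T/NK/ILC cells. The dFB share with at least 1 member was 30.5% in control and 77.6% in ACD unthinned, and 9.70% and 46.1% at 2000 UMIs. In ACD dFBs the 1% of cells with the most member UMIs held 8.46% of them.

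**Figure D4:**
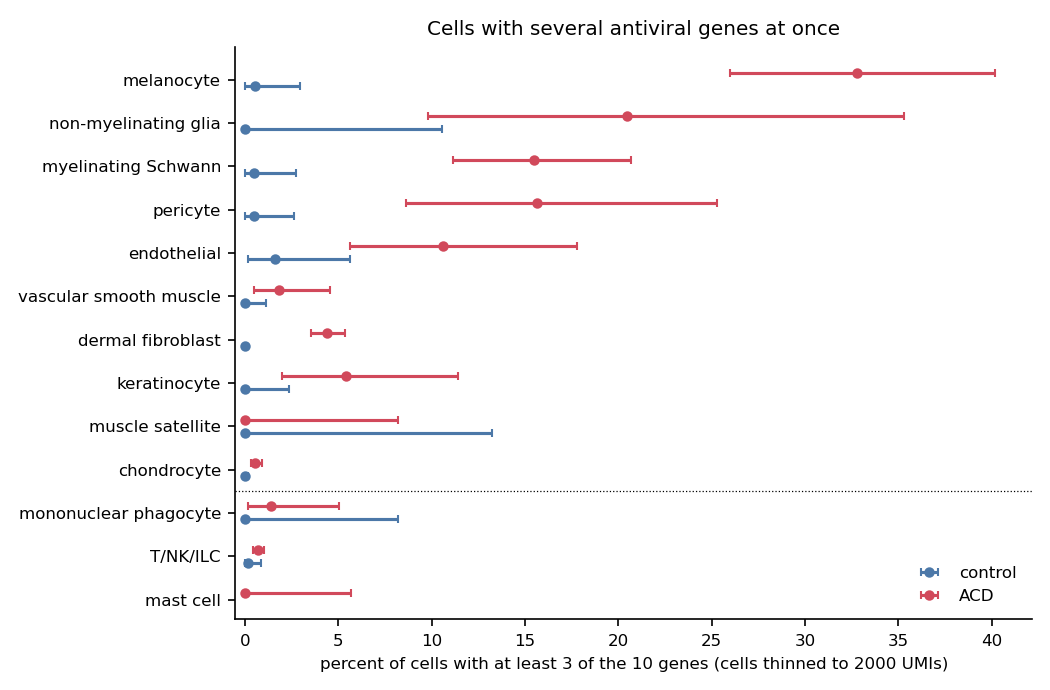
Percent of cells in which at least 3 of the 10 antiviral genes were detected after thinning to 2000 UMIs, by class, in control (blue) and ACD (red), with exact 95% intervals. Melanocytes of ACD lead at 32.8%, followed by both glial classes and pericytes, whereas ACD T/NK/ILC cells are at 0.690%. Non-myelinating glia, at 20.5%, had at most 47 ACD cells. Over the alternative settings they ran from 8.51% to 33.3% and melanocytes from 15.2% to 28.4%, so the lead of melanocytes over them is not settled. Mast cells of control are not drawn because 19 of them, under the minimum of 20, reached 2000 UMIs.

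The ligands of the pathway were read next. Of the 20 type I and type III interferon genes in the tables, 18 had no UMI in either library, which allows a level of up to 0.0325 CPM in control and 0.0301 in ACD over all kept cells. The Ifna genes are near-identical copies, so reads they share are uncertain. Ifnb1 had 1 UMI in control and 2 in ACD, all in mononuclear phagocytes, and Ifnk had 3 and 1. Ifng, in contrast, had 140 UMIs in control and 7258 in ACD, and 80.9% of the latter lay in T/NK/ILC cells, where the level went from 25.2 to 284 CPM, 11.3-fold. dFBs had 3.52 Ifng CPM in ACD on 85 UMIs. These are RNA counts at 1 time point, and ligand made earlier or elsewhere is not in view.

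Receptor genes moved little in resident classes, where no tested one was called in either direction. In mononuclear phagocytes 1 of 5 was called lower, and the share of all genes called lower in that class is not given here. In dFBs the type I receptor chains Ifnar1 and Ifnar2 were 30.4 and 64.1 in control and 26.8 and 80.8 in ACD, and the IFNγ receptor chains Ifngr1 and Ifngr2 were 110 and 31.4 in control and 107 and 32.7 in ACD. None of the 5 receptor genes tested in dFBs was called higher, beside 0.729% of all genes. Ifnlr1, the type III receptor chain, had 28 and 31 UMIs over all kept cells, and Il10rb, its partner, had 21.6 CPM in dFBs of both libraries. In T/NK/ILC cells Ifngr2 was 91.9 in control and 22.2 in ACD, a log2 ratio of -2.05 (-2.27 to -1.83). It was the 1 of 5 receptor genes called lower there, beside 1.64% of all genes. The make-up of this class differed between libraries, with 1 cluster at 59.6% of control and 16.6% of ACD cells. The part of this make-up in the lower Ifngr2 level was not tested.

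Of single signalling genes, given without a count over their list, Stat2 and Irf9, members of the ISRE-binding complex, went from 17.2 to 29.7 CPM and from 13.0 to 30.9 CPM in dFBs, 1.72-fold and 2.38-fold. Irf9 was 2.37-fold higher in T/NK/ILC cells, where Stat2 was 7.30 in control and 11.2 in ACD. In dFBs the kinase genes Jak1, Jak2 and Tyk2 were 164, 31.2 and 6.17 in control and 151, 35.1 and 6.74 in ACD. Socs3, an inhibitor of cytokine receptors, was 752 and 895, Pias1, an inhibitor of interferon signalling, was 24.9 and 24.0, and the interferon regulatory factors Irf3 and Irf5 were 22.2 and 5.09 in control and 23.9 and 6.37 in ACD. None of 4 nucleic acid sensor genes tested in dFBs was called higher, beside 0.729% of all genes. At that share, the lack of a call among so few genes says little about them. Tmem173 (STING) was 10.2 in control and 22.5 in ACD, and the 10 CPM added for a call lowers the ratio of a gene at such a level.

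The members were then set beside 2 lists of genes by their median log2 ratio with 10 CPM added. The first list held 50 other antiviral interferon-stimulated genes, 48 of them in the tables, and the second 27 genes that lean towards IFNγ, such as guanylate-binding proteins, immunity-related GTPases and Cxcl9. Both interferon types raise genes of either list, so the lists do not separate the types. In dFBs the median was 1.51 for the members, 0.47 for 38 other antiviral genes and 1.71 for 22 IFNγ-leaning genes, beside -0.00 for all genes. There 8 of 38 and 14 of 22 passed 2-fold. The T/NK/ILC medians were 0.36, 0.33 and 1.06, beside -0.09 for all genes, and 5 of 35 and 12 of 22 passed. In all 10 classes with at least 3 tested genes per list the IFNγ-leaning median was the highest and the other antiviral median the lowest, but the first order rests on the minimum of 50 UMIs. With no minimum the members were above the IFNγ-leaning genes in 6 of the 10, among them dFBs (1.51 against 1.34), melanocytes (2.24 against 1.40) and keratinocytes (1.22 against 0.74). The 10 members are a chosen subset of the antiviral genes. They and both lists were chosen with earlier results of these data known, so the order of the medians is only a description.

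**Figure D5:**
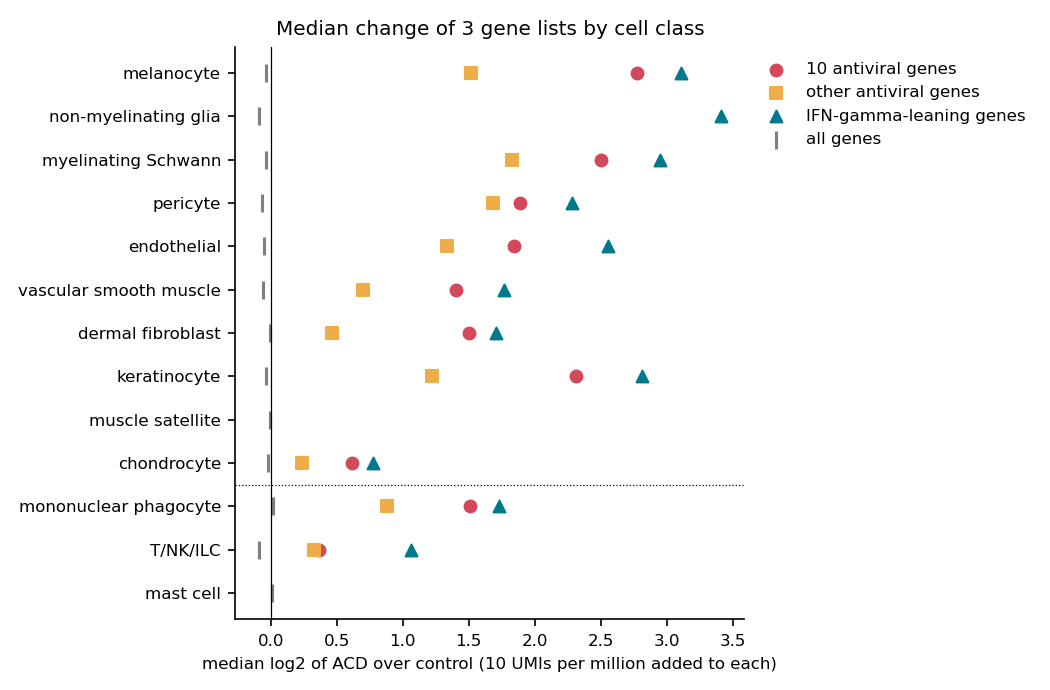
Median log2 ratio of ACD over control (10 CPM added) for the 10 antiviral genes, the other antiviral genes and the IFNγ-leaning genes in each class, where at least 3 genes of a list had 50 UMIs, with all genes as grey bars near 0. Triangles (IFNγ-leaning) lie to the right of circles (members) in every class that shows both, an order that turned in 6 of 10 classes with no minimum.

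Single genes of the lists spread widely. Of the other antiviral genes in dFBs, Lgals3bp, Zbp1 and Ifi27l2a were highest, from 15.2 to 101, from 2.19 to 42.8 and from 63.1 to 282 CPM. Ifit2, Trim25 and Dhx58 were lowest, at 13.4, 11.2 and 4.52 in control and 15.7, 13.2 and 5.34 in ACD. Ifit2 lies in the same gene cluster as Ifit1 and Ifit3, and its ratio of 1.17 (1.02 to 1.34) was below their ratios of 9.81 and 5.92 without overlap of intervals. Of the IFNγ-leaning genes, Cxcl9, the chemokine that attracts CXCR3-bearing T cells, went from 1.62 to 392, 242-fold (187 to 317). The GTPase genes Iigp1 and Gbp4 went from 1.95 to 331 and from 0.650 to 75.4. Serpina3g, Wars and Irf1 had the lowest log2 ratios, and Irf1 was high in both libraries, at 589 and 651.

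In mononuclear phagocytes Zbp1, Ly6e and Mndal had the highest log2 ratios of the other antiviral genes, from 5.26, 97.2 and 34.2 to 79.8, 488 and 165 CPM. Slfn5, Ifi27 and Trim25 had the lowest, at 36.8, 57.8 and 99.9 in control and 26.2, 39.9 and 66.7 in ACD. Cxcl9 had no UMI in control and 361 CPM in ACD, at least 45.8-fold higher, followed by Gbp2 from 5.26 to 205 and Gbp4 from 2.63 to 77.8, on 2 and 1 control UMIs. The lowest were Socs1, Gbp7 and Ciita, the master factor of MHC class II genes, at 28.9, 34.2 and 26.3 in control and 65.4, 68.0 and 34.0 in ACD. The highest in T/NK/ILC cells were Epsti1, Ifi27l2a and Zbp1, from 26.5, 104 and 9.62 to 130, 349 and 49.0, and among IFNγ-leaning genes Gbp2, Gbp3 and Gbp7, from 7.30, 3.32 and 29.2 to 78.3, 41.3 and 133. Mnda, Slfn5 and Eif2ak2 were lowest there, with Eif2ak2, the double-stranded RNA-activated kinase, at 10.6 in control and 5.61 in ACD. Serpina3g, Wars and Socs1 were the lowest IFNγ-leaning genes of T/NK/ILC cells, and Socs1 was 131 in control and 121 in ACD.

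Across 30 points (13 classes in both libraries and 4 in ACD alone), the genes whose log2 level was most like the mean of the members were Rtp4 (Pearson r 0.94), Gbp2 (0.93), Irgm2 (0.92), Gbp3 (0.91), Batf2 (0.91), Xaf1 (0.87), Gbp7 (0.86), Irgm1 (0.85), Igtp (0.85) and the gene ENSMUSG00000104713, 1 of 2 identifiers with the symbol Gbp6 (0.84), among 11537 genes compared. The points share libraries and depth, and the values are a description. Irf7 was most like the mean of the other members (0.86) and Ifi44 least (0.43).

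Within ACD dFBs, members were higher in cells that carried Cxcl9. At 2000 UMIs per cell, 417 dFBs with a Cxcl9 UMI had 770 member CPM (711 to 832) and 1746 without one had 385 (364 to 406). Without Bst2 the levels were 325 and 182. The former cells were deeper before thinning, with a median of 14156 UMIs against 9484, and whether depth plays a part was not tested. Cells of 1 library are not replicates, so this compares cells of 1 sample.

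RNA of immune cells in resident classes was measured with the marker lists. The 8 T/NK/ILC markers summed to between 0 and 40.9 CPM in the 10 resident classes of control and between 8.57 and 151 in ACD, against 3890 in T/NK/ILC cells themselves. The 8 mononuclear phagocyte markers summed to at most 38.0 in control and 56.0 in ACD, against 2205 in their own class. The 9 neutrophil markers, led by the abundant S100a8 and S100a9, summed to at most 23.8 and 315, against 139220 in neutrophil-like cells. The upper ends of these ranges were thus higher in ACD than in control, as were the members, and the part of such RNA in the member levels was not tested. Erythroid RNA, read from 4 globin genes and Alas2, also moved between libraries. It went from 150 to 18890 CPM in non-myelinating glia, from 49.7 to 9332 in keratinocytes, from 93.9 to 6914 in endothelial cells, from 87.8 to 5554 in vascular smooth muscle and from 145 to 1544 in T/NK/ILC cells. In dFBs it was 1426 in control and 709 in ACD, and in melanocytes 99.8 and 102. Its part in the member levels was not tested.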

How the data were processed

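The authors digested ear skin with collagenase D and DNase1, removed dead cells and made 3′ droplet libraries. Reads were aligned to mm10 with Cell Ranger (3.1.0 per the labels). The deposited matrices hold raw UMI counts per gene and barcode, 1 library per group, with no replicate and no cell annotation deposited among the files used here. The study's methods print the UMI limit as above 25000, which was read as an upper limit, and the study states fewer cells than these limits leave.

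Counts were summed over the cells of a class and divided by the UMIs of the class. A cell was gated to the class with the highest mean of ln(1 + UMIs per 10000) over its markers, if it had at least 3 distinct markers and no other class scored above 0.5 of it (0.8 for related classes). Gate thresholds were set after cell and marker counts were seen, on markers alone. The members and all gene lists were chosen with earlier results of these data known. No doublet was removed in the main values (Scrublet, in scanpy 1.11.5, marked 4.59% of control and 3.53% of ACD cells). Leiden clusters (leidenalg 0.10.2, 2000 variable genes, 30 components, 20 neighbours, resolution 1) were made without the genes of the interferon lists and served as an alternative to the gate. Levels carry exact Poisson intervals and ratios exact conditional binomial intervals (scipy 1.17.1). A count of 0 was read as allowing 3 UMIs. Calls need 50 UMIs and a log2 ratio of 1 with 10 CPM added, where CPM is UMIs scaled to 1000000 UMIs of the class. The intervals and calls were tried only on simulated Poisson counts, the model that the intervals assume. The simulation lacks the uneven spread of UMIs over cells, so it does not show how the intervals hold for it.

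Named genes were the 10 members, every interferon ligand with a UMI, every receptor and signalling gene (1 signalling gene is not reported here), the 3 highest and 3 lowest genes of the other antiviral and the IFNγ-leaning list in dFBs, mononuclear phagocytes and T/NK/ILC cells, and the 10 genes of at least 500 UMIs most like the members. The Cxcl9 split, the ratio of Ifit3 to Isg15, Ifit2 beside its neighbours, the T/NK/ILC subset calls, the erythroid values and the plasmacytoid dendritic-like levels were chosen after values were seen.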

Additional observations from a re-analysis of the deposited data

How the results depend on the processing

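No paired analysis was possible because each group is 1 library. No setting turned the direction of a summed level or a median whose interval lay on 1 side of 0. Of 161 alternative values of summed levels 140 stayed inside the counting interval, as did 933 of 963 of single members, 450 of 522 medians, and 170 of 191 counts of called members within 1.5 times. A mean over cells gave summed log2 ratios of 2.70 in resident, 0.76 in immune, 3.02 in dermal fibroblast and 0.55 in mononuclear phagocyte classes. Size factors gave 1.11 in immune classes, the looser gate 0.89 and Leiden clusters 1.84 in mononuclear phagocytes, and leaving out the 1% of cells with the most member UMIs 2.85 in resident classes. Without Bst2, added after seeing the data, the ratios were 2.39 in resident classes, 2.65 in dermal fibroblasts, 0.85 in T/NK/ILC cells and 1.78 in mononuclear phagocytes, and resident cells with no immune marker UMI, also added then, gave 2.68. With a pseudocount of 1 the called members were 10 in resident classes, 10 in dermal fibroblasts, 5 in immune classes and 2 in T/NK/ILC cells, beside 1.84%, 2.09%, 3.9% and 3.75% of all genes. The medians of members, other antiviral and IFNγ-leaning genes were then 2.29, 0.93 and 2.83 in dermal fibroblasts and 0.74, 0.66 and 1.81 in T/NK/ILC cells. With no minimum they were 1.51, 0.36 and 1.34 in dermal fibroblasts, and members stood above IFNγ-leaning genes in 6 of 10 classes (chondrocytes, dermal fibroblasts, keratinocytes, melanocytes, myelinating Schwann and vascular smooth muscle cells). A 20-UMI minimum, a pseudocount of 1 or all barcodes turned this order in keratinocytes, the stricter gate in mononuclear phagocytes, leaving out the top 1% of cells in myelinating Schwann cells, and cells with no immune marker UMI in 2 of 8 classes. Thinning to 1000 UMIs gave shares with at least 3 members of 0.920% in ACD dermal fibroblasts, 0.162% in ACD and 0% in control T/NK/ILC cells, where the stricter cell filter also gave 0%. One library per group leaves animal, preparation and treatment impossible to tell apart, and depth limits Mx1, Ifi44 and Usp18.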
